A study of Mus musculus with 12 samples.

Results

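Downstream promoter shoulder peaks were ATAC-seq peaks of a protein-coding gene whose centre lay more than 100 and up to 500 bp after the transcription start site (TSS), on the transcribed side of the promoter. They were taken by the gene type and signed distance that HOMER gave each peak, and numbered 2310 of the 84243 peaks in the master peak-list (2.74%) at 2264 genes. Accessible chromatin had been mapped in C57BL/6 mice aged 8 to 12 weeks, wild type and untreated, in 12 samples, 2 replicates for each of 6 sorted cell types. These were hematopoietic stem cells (HSC), megakaryocyte progenitors (MkP), erythroid progenitors (EP), granulocyte/macrophages (GM) and B cells of bone marrow, and T cells of thymus. The peaks of all 6 cell types were joined into 1 list without overlaps, which gives no cell type, no read count and a score of 0 for each peak. Levels per sample, depth and replicate error are therefore unknown, the sorted identities could not be checked against marker genes, and every comparison below is between classes of peaks. Peaks are not replicates, and the 95% intervals cover counting error only. The comparison classes were 7680 core peaks, centred within 100 bp of a protein-coding TSS, and 2412 upstream shoulder peaks, centred more than 100 and up to 500 bp before one. The downstream shoulder held 18.6% of the 12402 promoter peaks in the 3 classes together.

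An active promoter is open because nucleosomes are kept off the DNA around the TSS, where the general transcription factors and RNA polymerase II assemble. The nucleosome that follows the TSS is usually well placed, and the polymerase often pauses shortly before it. Many mammalian promoters lie in CpG islands, which are stretches rich in CpG dinucleotides that stay unmethylated, and which can reach from the promoter through the first exon into the first intron. A peak centred after the TSS therefore covers 5′ untranslated region (UTR), the start of the coding sequence or the first intron, with its splice donor, the signal at the exon's end where splicing begins.

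The sequences below show what such peaks cover at genes of blood cells. They were read from the RefSeq assembly GRCm38.p6, the mm10 build of the peak list, and run 5′ to 3′ along the strand of the gene. The number after each gene is the distance of the peak centre from the TSS in bp. The first set shows 240 bases from 3 peaks in first introns, at Tal1, a basic helix-loop-helix factor of stem cells and red cells, Rag2, a subunit of the recombinase of antigen receptor genes, and Mef2c, a MADS-box factor. Capitals mark the matches to the motifs described further on: GGGCGG in Tal1 and Mef2c, and AGATAA or its reverse complement TTATCT in Tal1 and Rag2.
Tal1 +323 (chr4:115056629-115056868, +): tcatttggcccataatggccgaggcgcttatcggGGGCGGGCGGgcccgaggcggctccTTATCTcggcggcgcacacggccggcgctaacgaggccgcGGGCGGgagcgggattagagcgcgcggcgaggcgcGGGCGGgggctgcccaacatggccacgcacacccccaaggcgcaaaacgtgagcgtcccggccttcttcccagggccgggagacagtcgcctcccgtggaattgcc
Rag2 +227 (chr2:101624871-101625110, +): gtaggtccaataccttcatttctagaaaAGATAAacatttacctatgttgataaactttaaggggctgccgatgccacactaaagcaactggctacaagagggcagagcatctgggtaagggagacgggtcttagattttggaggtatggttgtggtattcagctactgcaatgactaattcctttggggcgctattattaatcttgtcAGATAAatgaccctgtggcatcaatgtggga
Mef2c +186 (chr13:83523722-83523961, +): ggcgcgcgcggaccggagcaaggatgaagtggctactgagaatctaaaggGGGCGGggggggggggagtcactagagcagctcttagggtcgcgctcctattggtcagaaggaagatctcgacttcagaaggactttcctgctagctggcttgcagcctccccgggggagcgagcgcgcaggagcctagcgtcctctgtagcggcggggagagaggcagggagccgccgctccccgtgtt
The Tal1 stretch held 33 CpG and the Rag2 stretch 3. Over the whole peak, GC content was 69.1% at Tal1, 55.1% at Mef2c and 44.7% at Rag2.

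The second set shows the first splice donor in 7 of the peaks, with the last 10 bases of the first exon and the first 20 of the intron. Capitals mark the first 6 bases of the intron. The genes are Zeb2 and Satb1, a repressor and a chromatin organizer, Flt3, a growth factor receptor of early progenitors, Batf, an AP-1 family factor, Ikzf1, a zinc finger factor of lymphoid cells, and the receptors Il10ra and Tlr2.
Zeb2 +186 (chr2:45117180-45117209, -): ggcgagccagGTCAGCtgaccgggagcggg
Satb1 +115 (chr17:51832450-51832479, -): ccacgcctgaGTGAGTcccgcttctttgct
Flt3 +181 (chr5:147400200-147400229, -): ctgctgcttgGTAAGGcccctcaccccctc
Batf +177 (chr12:85686964-85686993, +): tggcaaacagGTACCCccttcgtccccctc
Ikzf1 +223 (chr11:11690380-11690409, +): aagtctgttgGTGAGTgtcacatggtttgg
Il10ra +163 (chr9:45268986-45269015, -): attgcatacgGTAGGCtccccagcgctcgc
Tlr2 +140 (chr3:83841500-83841529, -): ggactcctagGTAGGTggatcggtcctgct
Satb1 and Ikzf1 carried GTGAGT at the donor, and the other 5 carried GT followed by other letters.

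The third set shows 1 motif match at each of 8 members, in capitals within 29 or 30 bases. They are an E-box (CACGTG) at Flt3, an ETS match at Batf, PU.1 matches at a second Ikzf1 peak and at Tlr4, the lipopolysaccharide receptor, a GATA match at Lyl1, a partner-sharing relative of Tal1, a RUNX match at Cd44, the hyaluronan receptor, a YY1 match at Cd3e, a chain of the T cell receptor complex, and an IRF match at Psmb8, a subunit of the immunoproteasome.
Flt3 +181 (chr5:147400469-147400498, -): gaccacggcgggCACGTGggatcggctgca
Batf +177 (chr12:85686884-85686912, +): tgtgggagagcCCGGAAGattagaaccat
Ikzf1 +219 (chr11:11686204-11686233, +): gtgagcaacttGAGGAAGTcattgtgaaag
Tlr4 +131 (chr4:66827682-66827711, +): ttggcactctcACTTCCTCtttgaatatag
Lyl1 +136 (chr8:84701660-84701689, +): gcagccagacccTTATCTgcacaggcccag
Cd44 +140 (chr2:102901466-102901494, -): cctggaataaaAACCACAgccaacttccg
Cd3e +195 (chr9:45009410-45009438, -): tggctgcgtcCGCCATCTTggtagagaga
Psmb8 +106 (chr17:34198336-34198364, +): tactgtggctTTCGCTTTCacttccttgt
A match is a description of the letters and was not tested as a bound site.

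The peaks were not spread evenly over the shoulder. In bins of 10 bp the number of peaks after the TSS fell from 580 at 1 to 10 bp to 77 at 111 to 120 bp, then rose again to 139 at 211 to 220 bp, and fell to 29 at 291 to 300 bp. Before the TSS it fell from 660 at 11 to 20 bp to 66 at 211 to 220 bp, without a second rise of that size. The median distance was 216 bp, with quartiles of 166 and 320 bp. The lower limit cut through the trough, with 10 peaks 1 bp past it, the one at Myc among them, and 11 peaks just outside at 100 bp, the one at Cd34 among them. At the upper limit, 1 peak at 500 bp was inside (Fam103a1) and 4 peaks 1 bp farther were outside.

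**Figure D1:**
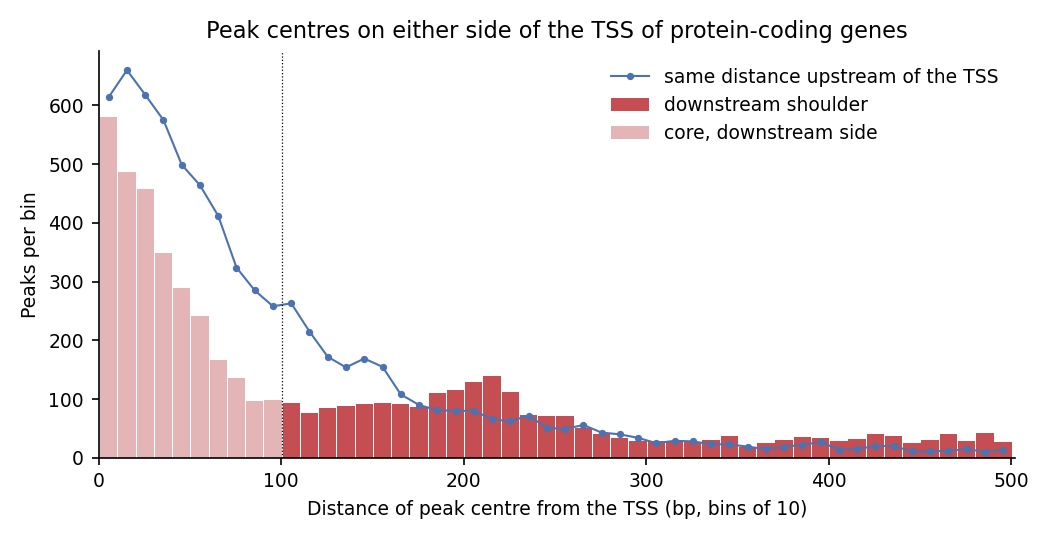
Number of peak centres per 10 bp bin after the TSS of protein-coding genes (bars, the downstream shoulder in dark red) and at the same distance before it (line). The bars rise a second time to 139 at 211 to 220 bp, where the line stands at 66.

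Taken over the whole range, the shoulders were of similar size, with 0.958 downstream peaks for each upstream peak (exact 95% interval 0.904 to 1.01). This ratio hid opposite imbalances by distance. Up to 150 bp there were 435 downstream and 973 upstream peaks, and 30.9% were downstream (28.5 to 33.4%). At 201 to 250 bp there were 525 and 331, and 61.3% were downstream (58.0 to 64.6%). At 451 to 500 bp there were 170 and 62, and 73.3% were downstream (67.1 to 78.9%). Between 150 and 200 bp and between 250 and 350 bp the intervals of the 50-bp bins included equality.

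Of the members, 2302 (99.7%) named a transcript present in the RefSeq annotation, and 2148 of these had a distance within 2 bp of that transcript's TSS. The other 8 members were left out of measures that need a transcript. The genes lay on the plus strand for 1183 members and on the minus strand for 1119, and 86 members (3.72%) lay on the X chromosome.

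In the RefSeq transcript, 932 of the 2302 centres lay in the 5′ UTR (40.5%, 95% Wilson interval 38.5 to 42.5%), 881 in the first intron (38.3%, 36.3 to 40.3%) and 433 in coding exons (18.8%, 17.3 to 20.5%). A further 30 lay in exons of non-coding transcripts, 9 in later introns and 17 outside the transcript. The place changed with distance. Up to 200 bp, 58.6% of 928 centres lay in the 5′ UTR and 22.7% in the first intron, as at Myc, a growth regulator (at the inner limit), and Tlr2 (140 bp). At 401 to 500 bp, 16.1% of 330 lay in the 5′ UTR and 65.2% in the first intron, as at Bcl11a, a repressor of fetal globin (418 bp), and Tox, a factor of T cell development (458 bp). The Tox distance is that of HOMER, and its RefSeq transcript, with a first exon of 447 bp, starts farther upstream. The share in coding exons stayed between 16.3 and 21.9% over the 4 distance bins. The median first exon was 273 bp long (quartiles 155 and 443 bp), beside 197 bp (126 and 307 bp) for core peaks and 212 bp (126 and 375 bp) for upstream shoulder peaks. These lengths were not tested.

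**Figure D2:**
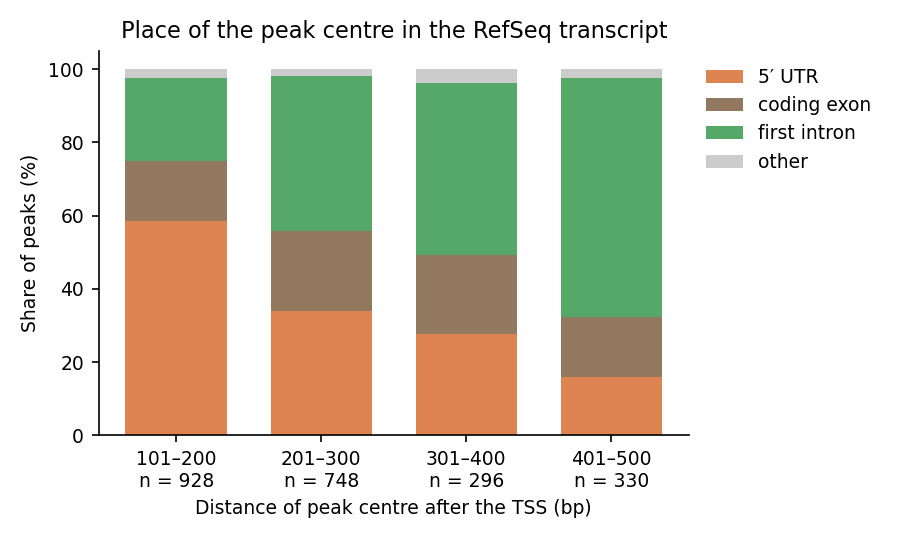
Share of downstream shoulder peaks by the place of their centre in the RefSeq transcript, for 4 bins of distance after the TSS with the number of peaks under each bar. The share in the first intron rises from 22.7 to 65.2%, and that in the 5′ UTR falls from 58.6 to 16.1%.

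The first splice donor lay inside the peak of 1645 members (71.5%), beside 61.3% of core and 13.3% of upstream shoulder peaks. The start codon lay inside for 1101 members (47.8%), 47.4% of core and 17.5% of upstream shoulder peaks. Members and upstream shoulder peaks lie on opposite sides of the TSS, and these shares were not tested. At Psmd6 and Mapk12, a proteasome subunit and a stress-activated kinase, the donor lay 2 bp before the centre, and at Cd3e the start codon lay 1 bp before it.

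The peak still reached back to the TSS in 1457 members (63.1%), those centred under 250 bp from it. Of the 850 members with a transcript whose peak did not reach it, 181 (21.3%, 18.7 to 24.2%) had a separate master peak over the TSS. That share was 0.446% of 224 at 250 to 300 bp, 15.2% of 296 at 301 to 400 bp and 40.9% of 330 at 401 to 500 bp. No neighbouring centre was nearer than 500 bp to a member, because the authors kept only peaks that do not overlap, so a second peak could not have been kept close by. A peak over the TSS has its centre under 250 bp from it, so the room for one grows with the member's distance. The rise in the share is therefore at least partly built in. No core or upstream shoulder peak was found at 1875 of 2264 genes (82.8%). Among the rest, 215 also had a core peak, 195 also had an upstream shoulder peak, and 21 had both. Core centres lie within 100 bp of the TSS, so a member centred under 400 bp could not share its TSS with one. The third quartile of distance was 320 bp, so the lack of core peaks is largely set by the filter.

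The next peak upstream was a median of 8972 bp away and the next downstream 11275 bp. A peak within 1 kb upstream was found for 347 members (15.1%), beside 6.18% of core and 8.69% of upstream shoulder peaks. A peak within 1 kb downstream was found for 218 (9.47%), beside 10.3 and 13.7%. The upstream direction crosses the TSS for members, of which 181 had a separate peak over it. For upstream shoulder peaks the downstream direction crosses it. A core peak leaves no room for a separate peak over its TSS. These shares thus differ at least partly by the class rule and were not tested.

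Whether another start site lay nearer to the peak was asked in 2 annotations. Among curated RefSeq transcripts, 29 members (1.26%) had another TSS of the gene within 100 bp of the centre, against 0.624% of upstream shoulder peaks (difference 0.636 percentage points, 0.0815 to 1.23, Fisher's exact test, adjusted p = 0.0437) and 4.69% of core peaks (adjusted p = 3.9e-16). Adjusted p-values in this group are from the Benjamini-Hochberg method over 8 tests. HOMER measured each distance to the nearest TSS. Another TSS of the gene within 100 bp, if HOMER knew it, would have made a shoulder peak a core peak. Both shoulder shares were thus held low by the rule, and the difference from core peaks is no result about the members. Among the larger set of GENCODE vM21 transcripts, 691 members (30.0%) had a start site of the same gene within 100 bp of the centre and at least 50 bp from the TSS that HOMER used. The share was 18.8% for upstream shoulder peaks (difference 11.3 points, 8.82 to 13.7, Fisher's exact test, adjusted p = 8.3e-19 over 4 tests) and 33.2% for core peaks (difference -3.16 points, -5.29 to -0.991, adjusted p = 0.0060). In members it fell with distance, from 40.6% up to 200 bp through 26.6 and 20.9% to 16.1% at 401 to 500 bp. The 50 bp limit took more of the search window from core peaks than from members. The shoulders also differed in distance, with 435 downstream and 973 upstream peaks up to 150 bp. The class differences were adjusted for neither. Start sites that HOMER also knew fall under the rule given above. Among the blood genes, a GENCODE start site within these limits was found for Myc, Tlr4, Cd44 and Csf1r, and for the members at Zeb2 (114 bp) and Ikzf1 (219 bp).

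A TSS of another gene on the opposite strand lay within 1 kb upstream of the TSS for 169 members (7.34%). This was lower than for core peaks (12.1%, difference -4.72 points, -5.97 to -3.38, Fisher's exact test, adjusted p = 1.0e-10). The difference from upstream shoulder peaks (8.32%) was -0.975 points with an interval of -2.51 to 0.566, and did not pass (exact test, adjusted p = 0.27). HOMER gave each peak to its nearest TSS. A peak before the TSS but nearer to the opposite-strand TSS was thus given to the other gene. Members, which lie after the TSS, could not be lost this way. The share of upstream shoulder peaks was therefore held low by the rule, and this comparison cannot decide whether the shoulders differ. HOMER gave 243 members the promoter class of another transcript, which belonged to the same gene in 102 cases, to a gene on the other strand in 136 and to another gene on the same strand in 5.

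CpG dinucleotides lay mostly after the TSS at these promoters. The 500 bp after the TSS held a median of 40 CpG and the 500 bp before it 16. Core promoters held 36 after and 22 before, and those of upstream shoulder peaks 38 and 33. More CpG after than before the TSS was found for 2015 of 2302 members (87.5%), for 78.1% of core peaks (difference 9.44 points, 7.76 to 11.0, Fisher's exact test, adjusted p = 1.6e-24) and for 59.3% of upstream shoulder peaks (difference 28.2 points, 25.8 to 30.6, adjusted p = 3.6e-109). In bins of 50 bp the mean number of CpG in members was highest at 150 to 199 bp after the TSS (4.46), whereas it was highest in the 50 bp before the TSS in core (4.78) and upstream shoulder promoters (4.86).

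**Figure D3:**
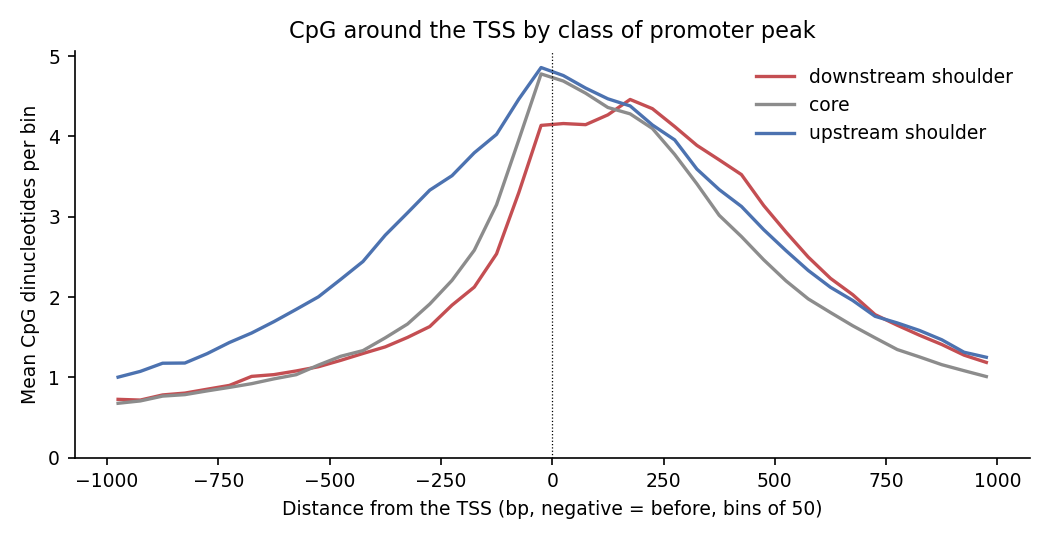
Mean number of CpG dinucleotides per 50 bp bin by distance from the TSS, along the strand of the gene, at promoters with a downstream shoulder, core or upstream shoulder peak. The downstream shoulder curve peaks at 4.46 after the TSS and lies below both others in the 250 bp before it.

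Base composition within the peaks differed less. Median GC content was 65.3% in members, 63.1% in core and 63.5% in upstream shoulder peaks, and 48.9% over all master peaks. By a sequence rule (GC of at least 50% and an observed to expected CpG ratio of at least 0.6 over the peak), 1713 members (74.2%) counted as CpG island, where 15% of all master peaks did. The share was 77.9% in core peaks (difference -3.72 points, -5.76 to -1.74, Fisher's exact test, adjusted p = 3.5e-04) and 73.3% in upstream shoulder peaks (difference 0.897 points, -1.62 to 3.41, adjusted p = 0.49). HOMER's own CpG island label was given to 441 members, all among its 753 intron peaks, because it labels islands only where no exon, UTR or promoter class applies. A comparison of that label between classes is therefore void. Of those 441, 416 also met the sequence rule. HOMER placed 25 members (1.08%) in repeats, among them 6 SINE and 3 LTR.

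The sequences of the peaks were searched for 19 short motifs, 17 on both strands, and each share was compared with both other classes (38 Fisher's exact tests, Benjamini-Hochberg adjusted). Against upstream shoulder peaks 8 motifs passed at an adjusted p under 0.05 (42.1% of those tested), 5 lower and 3 higher in members. Against core peaks 10 passed (52.6%), 9 lower and 1 higher. The classes cover different stretches of the promoter, and 36.9% of members did not reach the TSS. A difference in the shares over whole peaks can therefore come with the class rule alone. Overlapping matches were counted, and motifs with shared letters, such as CCGGAAG and GAGGAAGT, can match the same bases.

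The motifs lower in members than in upstream shoulder peaks were those of NF-Y, of Sp and KLF factors, of USF and MYC, the TATA box string and the GATA motif. CCAATC, the box of the trimeric factor NF-Y, was found in 336 members (14.5%), in 29.7% of upstream shoulder peaks (difference -15.1 points, -17.5 to -12.8, exact test, adjusted p = 9.5e-35) and in 24.9% of core peaks (difference -10.3 points, -12.0 to -8.56, adjusted p = 7.2e-26). Over all master peaks its share was 15.4%. GGGCGG, the GC box of Sp and KLF factors, was found in 1691 members (73.2%), below upstream shoulder (78.9%, exact test, adjusted p = 2.6e-05) and core peaks (77.5%, adjusted p = 1.1e-04), with 24.1% over all master peaks. The members with most GGGCGG were Pbrm1, a chromatin remodelling subunit, with 13, and Aspscr1 and Gatad1 with 11 each. CACGTG, the E-box of USF and MYC factors, was in 11.5% of members, 15.6% of upstream shoulder (exact test, adjusted p = 1.3e-04) and 13.9% of core peaks (adjusted p = 0.0063), and in 9.26% of all peaks. Lamp1, a lysosomal membrane protein, held 6. In the same window of every gene before the TSS, described below, the TATA box string and the GATA motif were higher in members instead. CACGTG did not pass there against upstream shoulder promoters (8.12 against 9.85%, exact test, adjusted p = 0.088).

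CCGGAAG, an ETS motif, was in 17.7% of members and 23.9% of core peaks (difference -6.16 points, -7.95 to -4.30, exact test, adjusted p = 1.9e-09). Its share in upstream shoulder peaks was 17.4% (difference 0.293 points, -1.88 to 2.47, exact test, adjusted p = 0.90), and in all peaks 6.68%. AAGATGGCG, a YY1 motif, was in 2.99% of members, 5.35% of core (exact test, adjusted p = 7.9e-06) and 2.94% of upstream shoulder peaks (adjusted p = 0.95), with 0.999% over all peaks. Lower shares than in core peaks were also found for the NRF1 motif GCGCATGCG (2.77 against 4.05%, exact test, adjusted p = 0.010), the CREB motif TGACGTCA (2.64 against 4.26%, adjusted p = 0.0011) and the ZNF143 motif ACTACAATT (0.303 against 0.898%, adjusted p = 0.0066). Over all peaks these 3 were in 0.797, 1.16 and 0.304%.

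The GATA motif AGATAA was in 7.66% of members, 9.74% of upstream shoulder peaks (difference -2.08 points, -3.69 to -0.471, exact test, adjusted p = 0.024) and 8.11% of core peaks (adjusted p = 0.67), and in 24.1% of all peaks. Slc13a2, a carboxylate transporter, held 3. CAGCTG, an E-box of E2A factors, was in 28.0% of members and 24.5% of upstream shoulder peaks (difference 3.51 points, 0.996 to 6.01, exact test, adjusted p = 0.015), with 25.9% in core (adjusted p = 0.086) and 29.8% in all peaks. The RUNX motif AACCACA (6.02% of members, 16.1% of all peaks), the PU.1 motif GAGGAAGT (4.29 and 9.39%), the CEBP motif TTGCGCAA (0.433 and 0.157%), the AP-1 motif TGANTCA (6.19 and 15.3%), the IRF motif GAAANNGAA (9.96 and 16.3%) and the CTCF motif AGGGGGCGC (3.29 and 1.75%) passed in neither comparison. In the central 200 bp of the peaks, 2 of these passed: CTCF was lower than in upstream shoulder peaks (difference -0.857 points, exact test, adjusted p = 0.047) and PU.1 lower than in core peaks (difference -1.21 points, adjusted p = 0.0020). Lcp1, an actin-bundling protein of leukocytes, and Ddx5 held 2 PU.1 matches each. Erap1, a peptidase of antigen presentation, held 3 IRF matches. These shares do not show that the classes are alike.

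The splice donor strings were searched on the sense strand of the gene only. GTGAGT was in 21.5% of members and 11.5% of upstream shoulder peaks (difference 10.1 points, 7.96 to 12.2, exact test, adjusted p = 1.1e-19), with 19.8% in core peaks (adjusted p = 0.14). GTAAGT was in 9.08% of members, 4.24% of upstream shoulder peaks (exact test, adjusted p = 2.0e-10) and 7.29% of core peaks (adjusted p = 0.013). Members lie after the TSS and upstream shoulder peaks before it, and the first donor lay inside 71.5 and 13.3% of them. The excess over upstream shoulder peaks therefore comes with the class rule and is no separate result. Mr1, which presents antigen to innate-like T cells, held 4 GTAAGT.

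Because the classes cover different parts of the promoter, the search was repeated in the same window of every gene, the 300 bases from 250 bp before the TSS on. This window was chosen after the peak results had been seen. Among 32851 RefSeq promoters of nearly the same extent, GGGCGG was in 35.7%, CCAATC in 16.1%, TATAAA in 13.6% and AGATAA in 11.2%. In this window 7 of 19 motifs passed against upstream shoulder promoters (3 lower, 4 higher) and 10 against core promoters (6 lower, 4 higher). GGGCGG was in 54.7% of member promoters, 67.2% of core (difference -12.5 points, -14.8 to -10.2, exact test, adjusted p = 5.0e-26) and 73.6% of upstream shoulder promoters (difference -18.9 points, -21.6 to -16.2, adjusted p = 2.1e-40). CCAATC was in 14.0, 21.7 and 23.3% (exact test, adjusted p = 9.6e-16 and 2.2e-15).

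TATAAA and AGATAA were higher in members than in both other classes there. TATAAA, the TATA box string, was in 8.99% of member promoters, 6.29% of core (difference 2.70 points, 1.46 to 4.04, exact test, adjusted p = 6.1e-05) and 5.78% of upstream shoulder promoters (difference 3.21 points, 1.72 to 4.72, adjusted p = 1.0e-04). Within the peaks themselves it had been lower, at 5.80% against 7.83% (exact test, adjusted p = 0.0028) and 8.37% (adjusted p = 0.0023), with 21.0% over all peaks. AGATAA was in 8.73, 6.10 and 4.37% (exact test, adjusted p = 7.6e-05 and 7.5e-09). GTAAGT was in 3.34, 2.32 and 2.00% (exact test, adjusted p = 0.020 and 0.012). GTGAGT was higher in members than in core promoters (7.43 against 6.05%, exact test, adjusted p = 0.043) but did not pass against upstream shoulder promoters (6.07%, adjusted p = 0.14). The IRF motif passed against upstream shoulder promoters (7.99 against 5.24%, exact test, adjusted p = 5.1e-04) but not against core promoters (7.55%, adjusted p = 0.67). The lower CpG content before the TSS moved with these shares, and its part in them was not tested.

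In the 400 bases from 50 bp after the TSS on, the same genes showed the reverse for the GC box. In this window 6 of 19 motifs passed against upstream shoulder promoters (1 lower, 5 higher) and 5 against core promoters (1 lower, 4 higher). GGGCGG was in 65.3% of member promoters, 57.8% of core (difference 7.55 points, 5.30 to 9.77, exact test, adjusted p = 1.6e-09) and 54.4% of upstream shoulder promoters (difference 10.9 points, 8.15 to 13.7, adjusted p = 7.7e-13). CCGGAAG was in 11.5, 9.18 and 6.36% (exact test, adjusted p = 0.0095 and 1.0e-08). CCAATC passed in neither comparison (10.0, 9.08 and 8.36%, exact test, adjusted p = 0.27 and 0.10). TGACGTCA, the CREB motif, was higher in members here (1.09, 0.522 and 0.291%, exact test, adjusted p = 0.026 and 0.0095). So was CAGCTG (23.5, 21.1 and 20.4%, exact test, adjusted p = 0.049 and 0.038). Against upstream shoulder promoters only, GAGGAAGT was higher (2.52 against 1.46%, exact test, adjusted p = 0.038) and TATAAA lower (3.69 against 5.28%, adjusted p = 0.038). The string GTGAGT was lower in members than in core promoters (19.8 against 22.9%, exact test, adjusted p = 0.0095). It did not pass against upstream shoulder promoters (21.9%, exact test, adjusted p = 0.16). GTAAGT passed in neither comparison (8.17, 8.55 and 7.78%, exact test, adjusted p = 0.71 and 0.75).

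**Figure D4:**
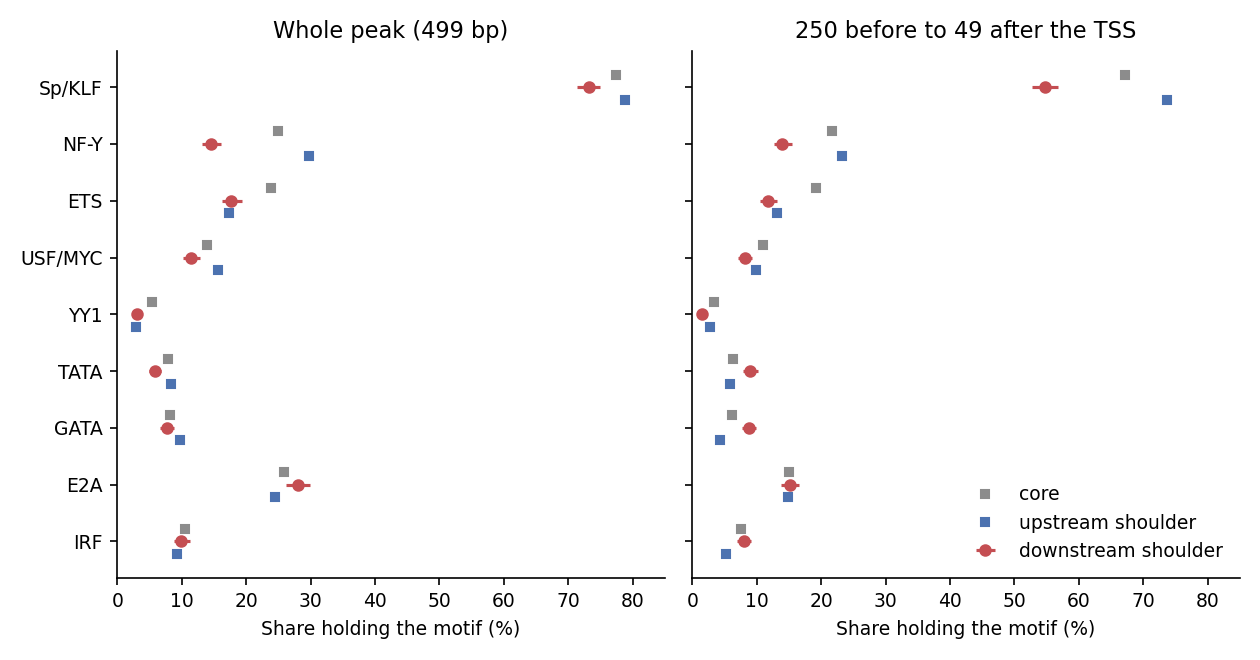
Share of peaks holding each of 9 motifs in downstream shoulder (with 95% Wilson intervals), core and upstream shoulder peaks, for the whole peak (left) and for the 300 bases from 250 bp before the TSS on of the same genes (right). GGGCGG (Sp/KLF) and CCAATC (NF-Y) are lowest in the downstream shoulder in both panels, while TATAAA and AGATAA are highest there in the right panel only.

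Blood transcription factors had 16 members among 104 promoter peaks (15.4%, 9.70 to 23.5%), beside the 18.6% of all promoter peaks. Among genes with 1 curated TSS the share was 9.80%, beside 18.3% of all promoter peaks of such genes. The 16 members lay at a median of 186 bp. Nearest to the TSS were Myc (at the inner limit), Zeb2 (114 bp, in the first intron), Satb1 (115 bp), Zeb1, a repressor related to Zeb2 (118 bp, in the first intron), Nfe2, a factor of megakaryocytes and red cells (131 bp), and Lyl1 (136 bp). Batf lay at 177 bp and Mef2c at 186 bp in its first intron. Nfkb1, a subunit of NF-kappaB, lay at 246 bp in a 5′ UTR with 77.0% GC. Farthest were Tal1 (323 bp), Bcl11a (418 bp) and Tox (458 bp), all in first introns.

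Zeb2 and Ikzf1 each had a pair of members, at separate start sites. The Zeb2 centres were 4118 bp apart, one with 52.3% GC (114 bp) and one with 68.5% (186 bp). The Ikzf1 centres were 4256 bp apart, at 219 and 223 bp, with 72.9 and 54.9% GC. The second Ikzf1 centre lay 11 bp past the first splice donor and matched none of the 17 motifs searched on both strands. At Rag2, which the list holds as a lymphoid gene although it encodes no transcription factor, the centre lay at 227 bp with 2 AGATAA matches.

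Blood surface receptors and markers had 7 members among 67 promoter peaks (10.4%, 5.15 to 20.0%), at a median of 150 bp. In the 5′ UTR lay Tlr4 (131 bp), Cd44 (140 bp) and Flt3 (181 bp). In the first intron lay Tlr2 (140 bp), Csf1r, the receptor of macrophage growth factor (150 bp), and Il10ra, a chain of the interleukin-10 receptor (163 bp). Cd3e (195 bp) was the one centred in a coding exon. Peaks of 50 further promoters in this list were core peaks.

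Gene groups with general functions differed in how many of their promoter peaks lay in the downstream shoulder. Each share is given as a description beside the 18.6% of all promoter peaks, and no list was tested. The highest was that of mitochondrial ribosomal proteins, 17 of 61 (27.9%, 18.2 to 40.2%), with Mrpl36 (198 bp), Mrps15 (218 bp), Mrps36 (226 bp) and Mrpl48 (229 bp) near the middle. Zinc finger and BTB genes, mostly DNA-binding repressors, followed with 83 of 352 (23.6%, 19.4 to 28.3%, an interval above 18.6%), at a median of 200 bp, such as Zfp273, Zfp341 and Zfp995 (199 bp each) and Zfp26 (200 bp). Solute carriers had 48 of 242 (19.8%), among them Slc3a2, the heavy chain of amino acid transporters (241 bp).

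The lowest shares were those of cytosolic ribosomal proteins and of oxidative phosphorylation. Cytosolic ribosomal proteins had 3 of 71 (4.23%, 1.45 to 11.7%), at Rpl22 (106 bp), Rps29 (121 bp) and Rps23 (418 bp), with 55 core peaks. Subunits of oxidative phosphorylation had 4 of 68 (5.88%, 2.31 to 14.2%), at Ndufs4 (237 bp), Ndufc2 (284 bp), Cox6c (300 bp) and Ndufb5 (371 bp). Translation factors had 5 of 59 (8.47%, 3.67 to 18.4%), Eif6 (380 bp) and Eif1 (485 bp) among them. The upper bounds of these 3 lists lay below 18.6%.

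The remaining lists had intervals that included 18.6%. Splicing genes had 8 of 77 (10.4%), such as Srsf1 (218 bp) and Hnrnpdl (279 bp). Histones had 6 of 56 (10.7%), with the linker histone genes Hist1h1e (191 bp), H1f0 (242 bp) and Hist1h1d (centred in a coding exon) and the core histone gene Hist1h4j (300 bp). The proteasome had 4 of 37 (10.8%), of which Psmb8 (106 bp) and Psmb10 (466 bp) encode immunoproteasome subunits and Psmd6 (167 bp) and Psmd7 (242 bp) subunits of the regulatory particle. The list of RNA polymerase II and Mediator also took in genes of the general transcription factors. It had 9 of 69 (13.0%, and 8% among genes with 1 curated TSS), Polr2c (238 bp) and Med11 (248 bp) among them. Ubiquitin conjugation and removal had 29 of 194 (14.9%), mitogen-activated kinases 6 of 39 (15.4%) and chromatin regulators 15 of 96 (15.6%), the last with Eed, a Polycomb subunit (283 bp), and Tet1, a 5-methylcytosine oxidase (298 bp).

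Small GTPases and their regulators had 28 of 177 (15.8%), such as Arf5 (181 bp). Chemokines, interleukins, ligands of the TNF superfamily and their receptors had 14 of 85 (16.5%), such as Il18 (181 bp) and Il17ra (224 bp). Cell cycle genes had 18 of 102 (17.6%), among them E2f6 (224 bp), Cdc45, a replication helicase subunit (344 bp), E2f2 (369 bp) and Cdk6, a G1 kinase (385 bp).

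**Figure D5:**
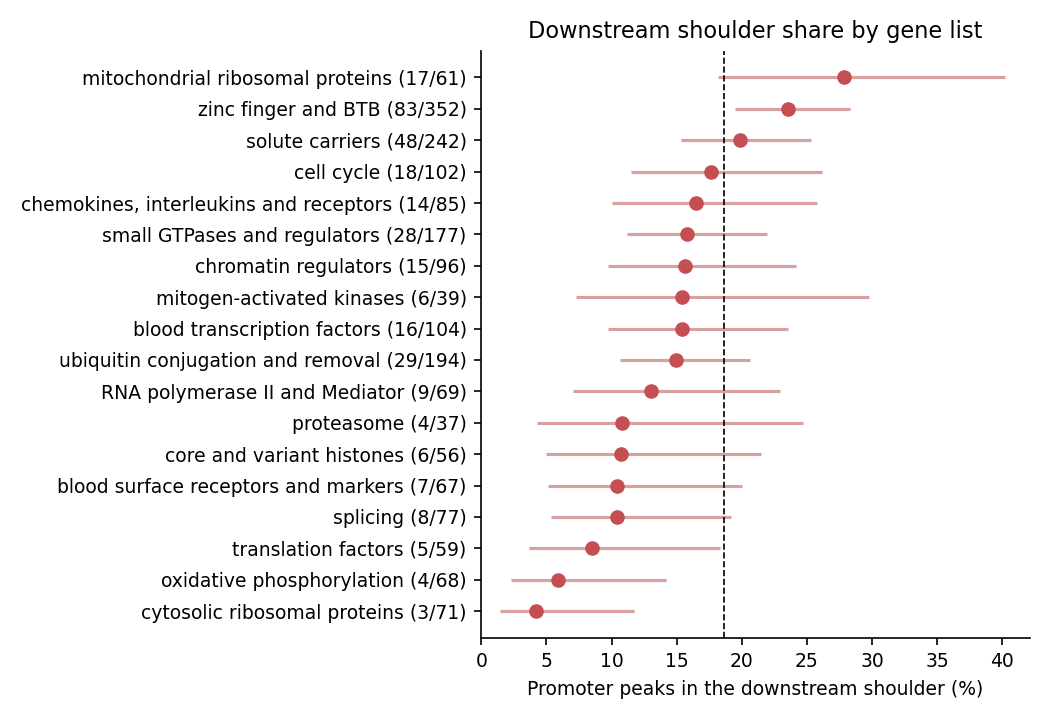
Share of promoter peaks of each gene list that lie in the downstream shoulder, with 95% Wilson intervals and the counts beside each name. The dashed line marks the 18.6% of all promoter peaks, and 3 of the 18 lists lie above it.

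At 45 genes, 2 or more shoulder peaks were found, each beside a start site of its own. Mid1, an X-linked ubiquitin ligase, had 3, at 154, 164 and 246 bp, with GC contents of 46.7, 56.9 and 48.9%. At Capg, an actin-capping protein, the centres lay at 138 and 142 bp and were 4740 bp apart. At Dbndd2 they lay at 153 and 164 bp, 748 bp apart. At Dedd, a death effector domain protein, they lay at 104 and 386 bp, 706 bp apart. Those of Arhgap24, a GTPase-activating protein, lay at 135 and 271 bp with 62.3 and 57.3% GC.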

How the data were processed

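ATAC-seq reads of the 12 samples were aligned to mm10 and peaks were called by the authors with the ENCODE pipeline, with the optimal Irreproducible Discovery Rate list of each cell type. The authors concatenated these lists, kept non-overlapping peaks with chromVAR and annotated them with HOMER (4.10.2 per the submitters' processing notes). Peak start, end and distance to the TSS, in bp, and the peak score were used as deposited. The deposited score was 0 in every peak, so no peak was ranked or filtered by it. The list holds 0 columns of values per sample, so analyses per cell type could not be run.

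Members were taken by gene type and distance. The members, gene lists and motifs were chosen with earlier results of these data known. Transcripts and sequence came from RefSeq (GRCm38.p6, release 108, curated accessions) and start sites also from GENCODE vM21. Shares have Wilson intervals, differences of shares Newcombe intervals, and counts exact binomial intervals, all at 95%. Shares were compared by two-sided Fisher's exact tests with Benjamini-Hochberg adjustment over 8 tests of promoter features, 4 of GENCODE start sites and 38 in each motif search. Genes were named by rule: each member in the lists of blood transcription factors and blood surface receptors, up to 4 members nearest the median distance in the other lists, the peaks at the limits, up to 6 genes with 2 or more members, and up to 3 members with most matches of a motif. Mid1 was added as the 1 gene with 3 members. Alternatives concerned the distance, TSS set, windows, chromosomes and 1 peak per gene. The fixed windows around the TSS and the GENCODE comparison were added after the data had been seen. The motif search found the matches planted in made-up sequences of A and T only, with TATAAA left out, and the tests found planted differences. Chance matches in GC-rich sequence, as in the peaks, were not checked. The tests were run in scipy 1.17.1 under Python 3.11.15, tables were handled with pandas 2.3.3 and numpy 2.4.6, and figures were drawn with matplotlib 3.10.9. The result for 1 gene named by the rule is not reported here.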

Additional observations from a re-analysis of the deposited data

How the results depend on the processing

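No paired analysis was possible because the list has no values per sample. For the same reason no replicate could be left out, and a stricter score could not be applied, since every score is 0. The number of shoulder peaks was 2352 with distances recomputed to RefSeq, and 1875 with an inner limit 50 bp farther out. The share of centres in the 5′ UTR was 36.8% and in the first intron 35.9% by the RefSeq Select transcript, which starts elsewhere for some genes. The share on a CpG island was 19.1% by HOMER's label and 74.2% by the sequence rule, since the label is given only to intron and intergenic peaks. The excess of other curated start sites over upstream shoulder peaks fell to 0.282 points within 250 bp (exact test, adjusted p = 0.67), so that call rests on the width of 100 bp. The difference in opposite-strand start sites from upstream shoulder peaks was 0.0811 points within 500 bp (exact test, adjusted p = 0.95), against -0.975 within 1 kb, and passed in neither. Both fall under the limit of the nearest TSS given above. The CpG balance kept its direction and call with 250 bp windows and without promoters that have an opposite-strand TSS.

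Among motifs, 8 differences changed sign, none of them past the threshold before or after. In the central 200 bp they were ETS against upstream (-1.38 points) and, against core, CTCF (-0.537), GATA (0.505), CEBP (-0.0785) and IRF (0.0937). Without opposite-strand promoters they were CEBP against upstream (0.0153) and CTCF against core (-0.0275), and with 1 peak per gene AP-1 against core (0.0446). Calls lost in the central 200 bp were TATA, GATA and E2A against upstream, and calls lost without opposite-strand promoters were E2A against upstream, and NRF1 and ZNF143 against core. The central 200 bp also gave 6 further calls. Against upstream these were NRF1 (-1.25 points, exact test, adjusted p = 6.6e-04), CREB (-1.26, adjusted p = 3.6e-04), ZNF143 (-0.371, adjusted p = 0.024) and CTCF (-0.857, adjusted p = 0.047). Against core they were PU.1 (-1.21, exact test, adjusted p = 0.0020) and GTGAGT (3.70, adjusted p = 3.0e-08). The GTGAGT call falls under the limit given for the splice donor strings. The NF-Y and Sp/KLF calls held in all 3 alternatives. Among genes with 1 curated TSS, 4 gene lists in place of 3 lay above the share of all promoter peaks, and the share fell over 1.5 times for blood transcription factors (9.80%) and for RNA polymerase II and Mediator (8%). The depth behind the peaks is unknown, and the HOMER symbols were used as deposited.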
